A study of Mus musculus with 12 samples.

Results

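A set of 10 genes of the matrix metalloproteinase (MMP) family were followed in mouse skin scars: Mmp2, Mmp3, Mmp8, Mmp9, Mmp10, Mmp11, Mmp12, Mmp13, Mmp14 and Mmp19. They were taken by gene symbol from count tables that list 35976 genes, and all 10 were among the 18853 genes with enough reads to be tested. The RNA came from scars of 12 male mice, 3 in each of 4 groups, aged 8 to 12 weeks. Mice were either wild type (Tem1WT/WT) or carried the lacZ reporter in place of the single exon of Tem1 on both alleles (Tem1lacZ/lacZ), a deletion present in every cell of the animal and bred onto C57BL/6J. Tem1, whose gene symbol is Cd248, encodes a transmembrane glycoprotein of fibroblasts and pericytes. The back skin received a 1.5-cm wound, over which a device was placed on day 6. In the traction groups (WTTR and lacZTR) the device was lengthened by 1 mm per day to 8 mm in total, whereas the sham groups (WTSH and lacZSH) wore the device without lengthening. Each library therefore holds RNA of a whole piece of scar, and the wound and the device were shared by all 4 groups.

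MMPs are zinc-dependent proteases that cut the proteins of the extracellular matrix. Most are secreted as inactive proenzymes, are switched on by plasmin or by other MMPs, and are blocked by the tissue inhibitors of metalloproteinases (TIMPs). Their members differ in what they cut. Mmp8 and Mmp13 are collagenases that cleave fibrillar collagen, Mmp2 and Mmp9 are gelatinases that act on denatured collagen and basement membrane collagen, and Mmp3 and Mmp10 are stromelysins with a wide range of substrates. Mmp11 is a stromelysin activated inside the cell by furin, Mmp12 is the elastase of macrophages, Mmp14 is a membrane-anchored enzyme that activates pro-Mmp2, and Mmp19 is a further secreted member found in skin. In wounded skin these enzymes are made by different cells, with fibroblasts, keratinocytes at the wound edge, macrophages and neutrophils each contributing.

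Of the 10 genes, 5 are neighbors. On mouse chromosome 9 (build GRCm38, GENCODE annotation), Mmp13 (9:7272514-7283331), Mmp12 (9:7344381-7369499), Mmp3 (9:7445822-7455975), Mmp10 (9:7502352-7510240) and Mmp8 (9:7558456-7568485) lie on the plus strand within 296 kb, in a cluster of 10 MMP genes that also holds Mmp1b, Mmp1a, Mmp27, Mmp20 and Mmp7. The other 5 are apart, with Mmp2 at 8:92827291-92853420, Mmp9 at 2:164940780-164955850, Mmp11 at 10:75923222-75936496 on the minus strand, Mmp14 at 14:54431612-54445364 and Mmp19 at 10:128790910-128800824. All 10 are annotated as protein coding. Mmp3 and Mmp10 are close in sequence: 8.37% of the 50-base stretches in the Mmp10 transcript also occur in Mmp3, so that how multiply aligned reads were handled could move reads between them. Mmp12 and Mmp1b overlap on opposite strands in this annotation, and whether the counting used the strand was not stated.

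Promoters of the chromosome 9 members are shown because some neighbors in the cluster were called for traction and others were not, as described below. RefSeq promoter sequences (GRCm38.p6) were at hand for 7 of the 10 genes, with 2 start sites for Mmp12. The 250 bases upstream of the start are given 5′ to 3′, in lower case with each match to the AP-1 motif TGANTCA in capitals. AP-1 is the Fos and Jun family of transcription factors, known as regulators of several MMP genes.
Mmp13, chr9:7272264-7272513, plus strand: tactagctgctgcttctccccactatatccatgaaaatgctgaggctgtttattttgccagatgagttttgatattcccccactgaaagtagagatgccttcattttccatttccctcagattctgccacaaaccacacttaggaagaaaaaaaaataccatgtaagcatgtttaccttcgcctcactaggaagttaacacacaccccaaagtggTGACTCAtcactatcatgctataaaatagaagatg
Mmp3, chr9:7445572-7445821, plus strand: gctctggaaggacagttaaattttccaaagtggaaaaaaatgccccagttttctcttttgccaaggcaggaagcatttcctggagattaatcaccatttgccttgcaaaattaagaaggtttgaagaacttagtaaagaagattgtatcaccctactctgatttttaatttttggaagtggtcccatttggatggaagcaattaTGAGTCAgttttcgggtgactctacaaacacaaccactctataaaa
Mmp10, chr9:7502092-7502341, plus strand: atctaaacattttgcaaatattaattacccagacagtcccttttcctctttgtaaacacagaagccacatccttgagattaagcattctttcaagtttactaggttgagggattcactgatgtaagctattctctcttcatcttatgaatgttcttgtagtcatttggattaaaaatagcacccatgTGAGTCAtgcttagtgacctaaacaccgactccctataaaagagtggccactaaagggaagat
Mmp12 (downstream start), chr9:7347124-7347373, plus strand: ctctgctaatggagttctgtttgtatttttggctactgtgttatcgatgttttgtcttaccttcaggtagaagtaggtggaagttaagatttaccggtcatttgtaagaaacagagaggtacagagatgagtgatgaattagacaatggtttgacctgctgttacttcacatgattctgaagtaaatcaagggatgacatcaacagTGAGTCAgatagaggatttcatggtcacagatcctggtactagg
Mmp8, chr9:7558179-7558428, plus strand: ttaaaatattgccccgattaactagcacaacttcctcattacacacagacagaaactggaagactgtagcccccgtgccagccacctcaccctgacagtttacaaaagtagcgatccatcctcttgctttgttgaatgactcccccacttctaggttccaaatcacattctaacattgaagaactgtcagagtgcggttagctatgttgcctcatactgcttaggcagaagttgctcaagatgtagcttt
The motif reads the same on both strands, and its first base lay 35 bases upstream of the start of Mmp13, 46 of Mmp3, 63 of Mmp10 and 44 of the downstream start of Mmp12. It was found once in each of these promoters and not in those of Mmp8, Mmp11, Mmp14 or the upstream start of Mmp12. Of 32851 promoters in the RefSeq table, 6.75% held it within the same 250 bases. The TATA box motif TATAAA (either strand) was matched anywhere in the window. It was found in the promoters of Mmp13, Mmp3 and Mmp10, beginning 16, 7 and 29 bases upstream of the start, and in 12.4% of all promoters. The Runx motif TGTGGT was matched on the opposite strand in the Mmp13 and Mmp14 promoters, and in 14% of all promoters on either strand. Such matches describe the letters in this window and do not show binding.

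Each library held between 41536788 and 64644293 counted reads. Levels are given as CPM, the reads of a gene scaled to a common library total with edgeR's trimmed mean of M values (TMM), and differences as log2 fold changes ± SE from edgeR's quasi-likelihood fit to all 12 libraries, with p-values adjusted over 18853 genes and called below 0.05. Cd248 was present at 92.4 to 337 CPM in the 6 Tem1WT/WT libraries and had 0 to 13 reads in the 6 Tem1lacZ/lacZ libraries, where the library with 0 reads allows up to 0.0739 CPM. Fibroblast markers summed to 7960-23378 CPM and keratinocyte markers to 12629-67062 CPM. The highest keratinocyte sum was that of lacZTR replicate 1, beside 17805 and 21863 CPM in lacZTR replicates 2 and 3. Adipocyte markers summed to 5922 CPM in lacZSH replicate 1 and 3097 CPM in lacZTR replicate 3, and to 225-1550 CPM in the remaining libraries. One library stood apart in its neutrophil markers: in WTTR replicate 1 the 15 markers summed to 7868 CPM, compared with 651 and 329 CPM in the other WTTR libraries, 38.5 to 99.6 CPM in WTSH, 154 to 196 CPM in lacZSH and 274 to 535 CPM in lacZTR. In that library S100a9 gave 3935 CPM of the sum and S100a8 1296 CPM, while S100a9 was at 8.51 to 302 CPM in the other 11. Ly6g was at 3.76 CPM in it and at 0 to 0.177 CPM in the others. Elane and Mpo, both granule genes, were at 0.167 and 0.214 CPM in it. Over all 12 libraries they were at 0 to 0.547 and 0.114 to 0.729 CPM. The same library also differed in other lists. Its fibroblast markers summed to 9877 CPM, beside 16157 and 23378 CPM in WTTR replicates 2 and 3. Krt10, a keratinocyte marker, was at 145 CPM in it, beside 2058 and 3641 CPM. Skeletal muscle markers also varied, from 1552 to 16328 CPM in WTSH and from 444 to 2732 CPM in WTTR. In whole tissue, a change in the number of cells of a type and a change in RNA per cell cannot be told apart.

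In Tem1WT/WT scars, traction was accompanied by higher expression of 5 of the 10 MMPs, namely the gelatinases Mmp9 and Mmp2, the collagenase Mmp13, the stromelysin Mmp10 and the membrane-anchored Mmp14. None was lower. Of all genes tested, 9.15% were called in this comparison and 5.61% were called higher (1057 higher and 668 lower; 734 and 939 with upper quartile scaling, which lowered the median of all genes to -0.12). With that scaling 4 of the 10 were called, Mmp2 being at 1.01 (adjusted p = 0.0512). The median log2 fold change of the 10 genes was 1.24, compared with -0.01 over all genes. The increases ranged from 2.17-fold for Mmp2 to 137-fold for Mmp10. For 7 genes, the 5 above with Mmp3 and Mmp19, every WTTR library lay above every WTSH library, a separation seen upward in 17.7% of all genes.

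**Figure D1:**
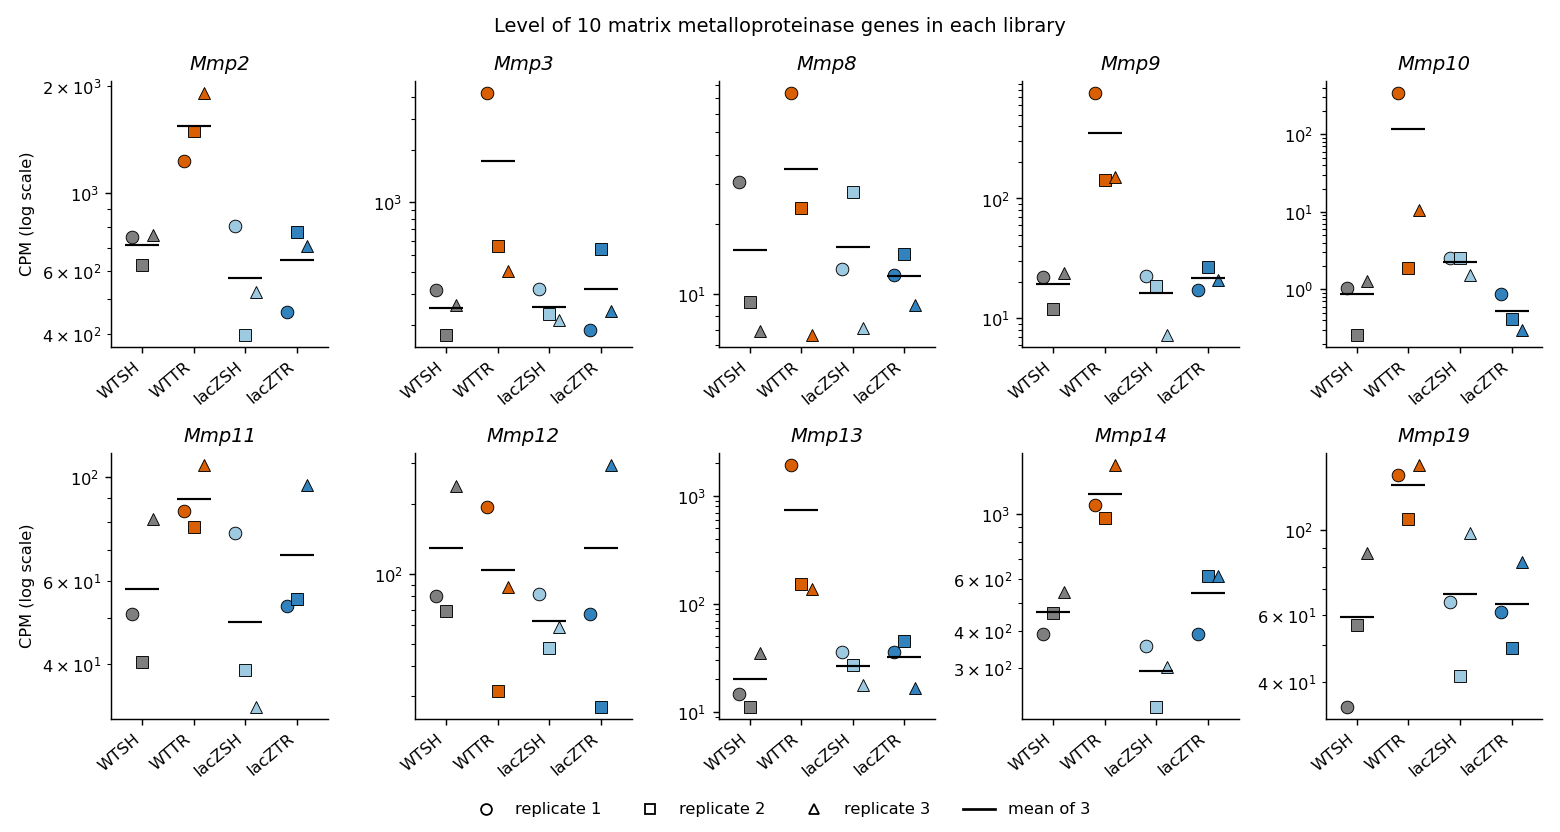
Level of each of the 10 MMP genes in the 12 libraries, in CPM on a log axis that differs between panels. Symbols mark replicates 1, 2 and 3 of each group and the line is the mean of 3; for Mmp2, Mmp9, Mmp13, Mmp14 and Mmp19, the 3 WTTR libraries lay above all 9 others.

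Of the gelatinases, Mmp9 was at 22.0, 12.01 and 24.1 CPM in WTSH and at 757, 141 and 150 CPM in WTTR. All 3 traction libraries were far above the sham libraries, the first by the most. The log2 fold change was 4.17 ± 0.71 (adjusted p = 0.0252), an 18.0-fold difference of the fit. Mmp2 was expressed at much higher counts, with 752, 625 and 761 CPM in WTSH and 1229, 1499 and 1915 CPM in WTTR. Here the first WTTR library was the lowest of the 3 and still above all sham libraries. Mmp2 rose by 1.12 ± 0.29 (log2, adjusted p = 0.0416). Its activator Mmp14 was at 391, 462 and 543 CPM in WTSH and at 1072, 965 and 1463 CPM in WTTR, with no overlap and replicates close to each other. The log2 fold change of Mmp14 was 1.33 ± 0.26 (adjusted p = 0.0278).

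Of the collagenases, Mmp13 was called and Mmp8 was not. Mmp13 was at 14.5, 11.2 and 35.2 CPM in WTSH and at 1929, 154 and 138 CPM in WTTR, so that the first traction library held over 10 times the level of the other two. The log2 fold change was 5.19 ± 1.06 (adjusted p = 0.03). Mmp8, the collagenase known from neutrophils, was at 30.5, 9.24 and 6.94 CPM in WTSH and at 73.8, 23.6 and 6.68 CPM in WTTR. Its groups overlapped, the lowest of the 6 libraries being a traction library, and the log2 difference of 1.16 ± 0.81 did not pass the test (adjusted p = 0.348).

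Both stromelysins were dominated by a single library. Mmp10 was at 1.04, 0.261 and 1.29 CPM in WTSH, which corresponds to 18 to 79 reads, and at 341, 1.90 and 10.5 CPM in WTTR. The second traction library was only slightly above the highest sham library. The log2 fold change was 7.10 ± 1.66 (adjusted p = 0.0348), with a 95% interval from 3.44 to 10.8. Mmp3 was already abundant in sham scars, at 314, 175 and 260 CPM, and was at 4208, 564 and 406 CPM with traction. Its groups did not overlap, but the log2 difference of 2.79 ± 0.80 missed the threshold (adjusted p = 0.0519).

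Among the remaining members, Mmp19 was at 34.5, 56.4 and 87.4 CPM in WTSH and at 140, 107 and 148 CPM in WTTR. The groups were separate, and the log2 difference of 1.15 ± 0.37 did not pass (adjusted p = 0.069). Mmp11 was at 51.1, 40.3 and 81.4 CPM in WTSH and at 84.5, 78.3 and 106 CPM in WTTR, with overlapping groups and a log2 difference of 0.64 ± 0.36 (adjusted p = 0.254). Mmp12 was the only member with a negative estimate. It was at 80.4, 69.3 and 237 CPM in WTSH and at 194, 31.5 and 87.5 CPM in WTTR, with a spread within each group larger than the log2 difference of -0.31 ± 0.84 (adjusted p = 0.834). The 12 macrophage markers summed to 2869-4701 CPM in WTSH and 4635-6347 CPM in WTTR, and the part of macrophage content in the Mmp12 values was not tested.

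Leaving out WTTR replicate 1, the library with the high neutrophil marker sum, reduced the estimates of some members and barely moved others. Without it, Mmp9 (log2 fold change 2.89, adjusted p = 0.0344), Mmp13 (2.83, 0.0433) and Mmp14 (1.36, 0.046) remained called, while 1.44% of the genes then tested were called higher. Mmp2 was at 1.24 (adjusted p = 0.0557) and Mmp10 at 2.82 (adjusted p = 0.0612), both just missing the threshold. Mmp3 dropped from 2.79 to 0.94 (adjusted p = 0.182) and Mmp8 to -0.04, whereas Mmp19 was at 1.08 and Mmp11 at 0.66. The library held 55.0 times the mean of the other two WTTR libraries for Mmp10, 13.2 times for Mmp13, 8.68 times for Mmp3, 5.19 times for Mmp9 and 4.87 times for Mmp8. For Mmp2, Mmp14, Mmp11 and Mmp19 that ratio was between 0.720 and 1.10. The calls also depended on sham and other libraries: no member was called without WTSH replicate 1 or without WTSH replicate 2, 3 were called without WTSH replicate 3 and 1 without lacZSH replicate 3, although the estimates of the 5 called genes stayed positive each time. Over all genes, 0, 0, 820 and 169 were called in these 4 fits, so that without WTSH replicate 1 or 2 no gene of any kind passed.

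**Figure D2:**
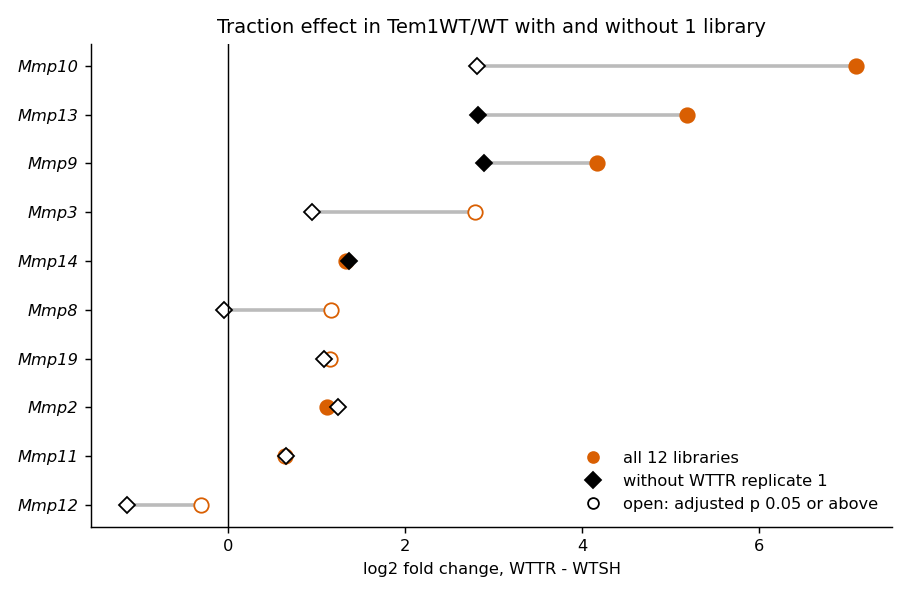
Log2 fold change between WTTR and WTSH for each MMP gene, from all 12 libraries (circles) and without WTTR replicate 1 (diamonds), with filled symbols where the adjusted p was below 0.05. Mmp10, Mmp13, Mmp3, Mmp9 and Mmp8 move to the left by more than 1 log2 unit, while Mmp14, Mmp2, Mmp19 and Mmp11 stay in place.

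In Tem1lacZ/lacZ scars, no MMP was called between traction and sham, and no gene of the 18853 was (0%). At an unadjusted p below 0.05, 8.12% of all genes and 1 of the 10 MMPs stood out in edgeR's test. That gene was Mmp14, at 357, 222 and 302 CPM in lacZSH and at 390, 613 and 615 CPM in lacZTR. All 3 traction libraries were above all sham libraries, and the log2 difference was 0.88 ± 0.26 (adjusted p = 0.598). It passed the threshold in limma-voom with sample weights, the only one of the tools run in which a member did (log2 fold change 1.00, adjusted p = 0.045). In this comparison limma-voom called 377 genes in all and DESeq2 called 28. Mmp10 went the other way, from 2.57, 2.56 and 1.55 CPM in lacZSH to 0.863, 0.419 and 0.302 CPM in lacZTR, that is from 77-108 to 16-35 reads. Its groups did not overlap, which was so for 12.9% of all genes in either direction, and the log2 difference of -2.10 ± 1.47 did not pass (adjusted p = 0.698).

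The other 8 members overlapped between lacZSH and lacZTR. Mmp9 was at 22.8, 18.8 and 7.33 CPM in lacZSH and at 17.3, 27.0 and 20.8 CPM in lacZTR, a log2 difference of 0.41 with a 95% interval from -0.96 to 1.79. Mmp13 was at 35.9, 27.0 and 17.6 CPM and at 35.6, 45.1 and 16.8 CPM, with an interval from -1.68 to 2.23 around 0.28. The lacZTR values of both genes were near those of the WTSH libraries. Mmp2 was at 807, 398 and 525 CPM in lacZSH and at 462, 773 and 707 CPM in lacZTR, with an interval from -0.47 to 0.80. Mmp3 was at 317, 228 and 213 CPM and at 186, 540 and 238 CPM, 1 traction library being above the rest. Mmp12 had the largest estimate of the 8, at 1.03, and this rested on lacZTR replicate 3 at 293 CPM beside 67.0 and 26.9 CPM; without that library it was -0.43. Mmp8, Mmp11 and Mmp19 had log2 differences of -0.41, 0.47 and -0.09, each with a 95% interval that included 0. The median of the 10 genes was 0.31.

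**Figure D3:**
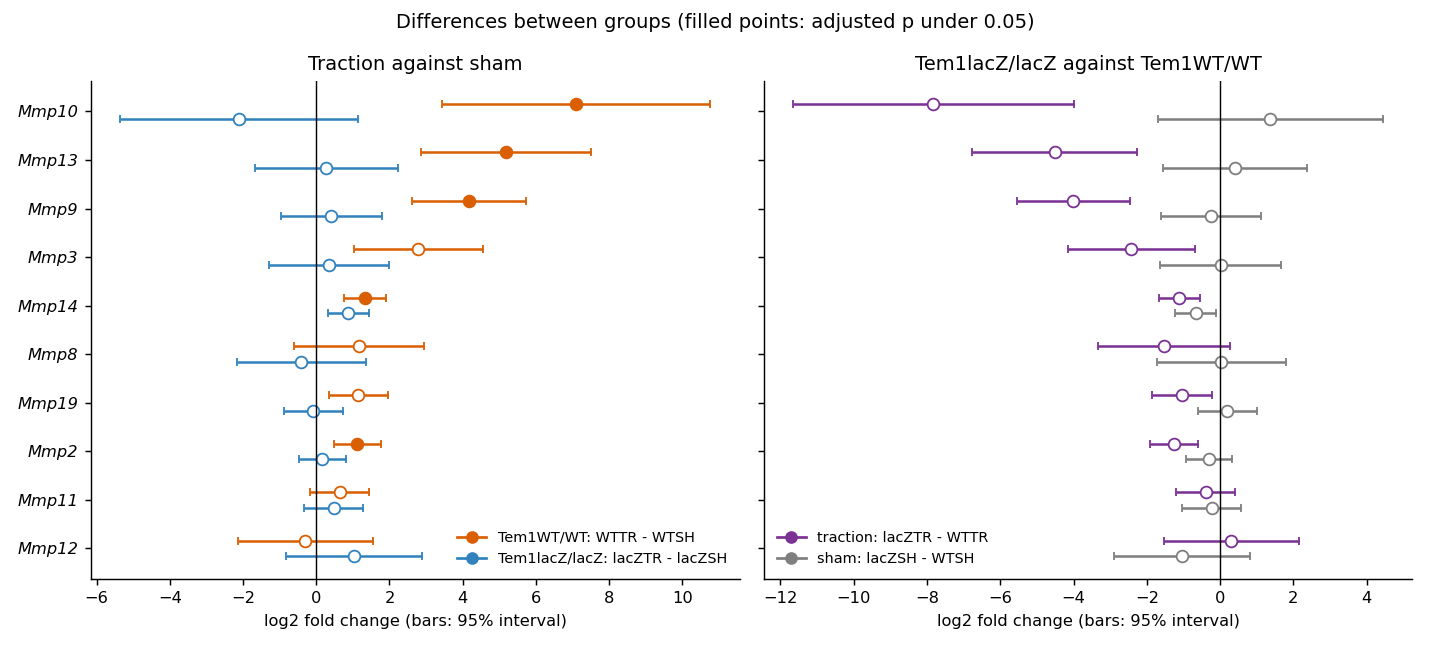
Log2 fold changes of the 10 MMP genes with 95% intervals, on the left for traction against sham in each genotype and on the right for Tem1lacZ/lacZ against Tem1WT/WT in each treatment; filled points have an adjusted p below 0.05. The 5 filled points are all in the comparison of WTTR with WTSH, and the estimates for lacZTR against WTTR are negative for every gene but Mmp12.

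Whether traction acted differently in the genotypes was tested directly by the interaction of genotype and traction. No member passed, and neither did any of the 18853 genes (0%); the lowest adjusted p among the 10 was 0.548. At an unadjusted p below 0.05, 6 of the 10 had a smaller traction effect in Tem1lacZ/lacZ, compared with 4.46% of all genes in that direction. These were Mmp10 (log2 interaction -9.20 ± 2.17), Mmp13 (-4.91 ± 1.32), Mmp9 (-3.76 ± 0.91), Mmp3 (-2.45 ± 1.07), Mmp19 (-1.24 ± 0.52) and Mmp2 (-0.95 ± 0.41). For Mmp14 the interaction was -0.45, with a 95% interval from -1.24 to 0.34. DESeq2 called 2 members, Mmp9 (adjusted p = 0.0121) and Mmp10 (adjusted p = 0.00227), and 0.368% of the genes to which it gave an adjusted p. Without WTTR replicate 1 the edgeR estimates were -4.88 for Mmp10, -2.53 for Mmp13, -2.45 for Mmp9 and -0.56 for Mmp3, and 4 members had an unadjusted p below 0.05, compared with 2.89% of the genes then tested.

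With traction, Tem1lacZ/lacZ scars held less of most MMPs than Tem1WT/WT scars, but no member passed the test over all genes. Of all genes, 0.106% were called. Unadjusted, 7 of the 10 were lower at p below 0.05, compared with 15.1% of all genes, and for 6 every lacZTR library lay below every WTTR library, compared with 13.7%. The 6 were Mmp2, Mmp9, Mmp10, Mmp13, Mmp14 and Mmp19. The log2 differences were -4.01 ± 0.70 for Mmp9 (adjusted p = 0.0702), -4.51 ± 1.02 for Mmp13 (adjusted p = 0.0845), -7.82 ± 1.74 for Mmp10 (adjusted p = 0.0845), -1.26 ± 0.29 for Mmp2 (adjusted p = 0.0889), -1.11 ± 0.26 for Mmp14 (adjusted p = 0.0887) and -1.04 ± 0.37 for Mmp19 (adjusted p = 0.126). Mmp3 was lower by estimate, at -2.43 ± 0.79 (adjusted p = 0.109), though lacZTR replicate 2 at 540 CPM exceeded WTTR replicate 3 at 406 CPM. Mmp11 and Mmp12 overlapped widely, with differences of -0.40 and 0.31. DESeq2, which called 6 members and 21.6% of genes for traction in Tem1WT/WT, here called 5 (Mmp2, Mmp3, Mmp9, Mmp10 and Mmp14) along with 13.2% of the genes to which it gave an adjusted p, and gave none for Mmp13. Without WTTR replicate 1, edgeR's estimates were -2.71 for Mmp9 (adjusted p = 0.0585), -2.14 for Mmp13, -1.36 for Mmp2 and -1.13 for Mmp14, with 6 members below an unadjusted p of 0.05 as were 10.3% of the genes then tested. Without WTTR replicate 2, Mmp2, Mmp9, Mmp10, Mmp13 and Mmp14 were called, along with 1421 genes in all (7.32% of those then tested), compared with 20 genes from all 12 libraries. Markers of other cell types also differed here. The endothelial markers summed to 455-744 CPM in lacZTR and 919-1107 CPM in WTTR, without overlap, and all 10 had a negative estimate, though none was called. The neutrophil sums were 274-535 and 329-7868 CPM and the macrophage sums 2600-4905 and 4635-6347 CPM, with overlap, and no marker of either list was called. The part of these cells in the MMP differences was not tested.

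Between the genotypes in sham scars, no member was called, and 0.0106% of all genes were. Mmp14 alone had an unadjusted p below 0.05 in edgeR's test, as did 11.7% of all genes, and DESeq2 called no member. The 10 estimates were split evenly, 5 positive and 5 negative, with a median of -0.11. Mmp14 was lower in every lacZSH library than in every WTSH library (357, 222 and 302 CPM against 391, 462 and 543 CPM), with a log2 difference of -0.66 ± 0.26 and an adjusted p of 0.409. Mmp10 was higher in every lacZSH library, at 1.55 to 2.57 CPM against 0.261 to 1.29 CPM, with a log2 difference of 1.37 ± 1.39 (adjusted p = 0.703). Of all genes, 26.8% did not overlap between these groups in one direction or the other. The remaining 8 members overlapped. For Mmp9, the 95% interval of the difference ran from -1.63 to 1.13, and for Mmp2 from -0.94 to 0.33. Mmp12 had a log2 difference of -1.03, with an interval from -2.90 to 0.83.

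Taking the 4 groups at once, the 3 WTTR libraries were above all 9 other libraries for Mmp2, Mmp9, Mmp13, Mmp14 and Mmp19, which is 5 of the 10 genes and compares with 9.61% of all genes. For Mmp3, lacZTR replicate 2 fell inside the WTTR range, and for Mmp10, 2 lacZSH libraries exceeded WTTR replicate 2.

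Along the chromosome 9 cluster, the members called for traction in Tem1WT/WT were interleaved with those not called. Genes were not tested against each other, and without WTTR replicate 1 only Mmp13 of these members was called. Mmp13 at the left end rose, Mmp12 next to it did not pass the test, Mmp3 missed the threshold, Mmp10 rose and Mmp8 did not pass. Both an AP-1 match and a TATAAA match stood in the printed promoters of Mmp13, Mmp3 and Mmp10. Their log2 fold changes were 5.19, 2.79 and 7.10, and 2.83, 0.94 and 2.82 without WTTR replicate 1. The downstream start of Mmp12 had the AP-1 match without a TATAAA match, and Mmp8 had neither. Outside the cluster, Mmp14 was called higher (1.33) and had neither, and no promoter was at hand for Mmp2, Mmp9 and Mmp19. Any part of these motifs in the response was not tested. Of the cluster genes outside the 10, Mmp1b was nearly absent, with 0 to 2 reads in WTSH and 124, 2 and 16 reads in WTTR. Mmp27 was at 10.7 to 24.9 CPM in WTSH and at 6.45 to 17.0 CPM in WTTR (adjusted p = 0.226). Mmp20 had 8 to 19 reads in WTSH and 0 in WTTR, and Mmp7 had 1 read over all libraries.

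**Figure D4:**
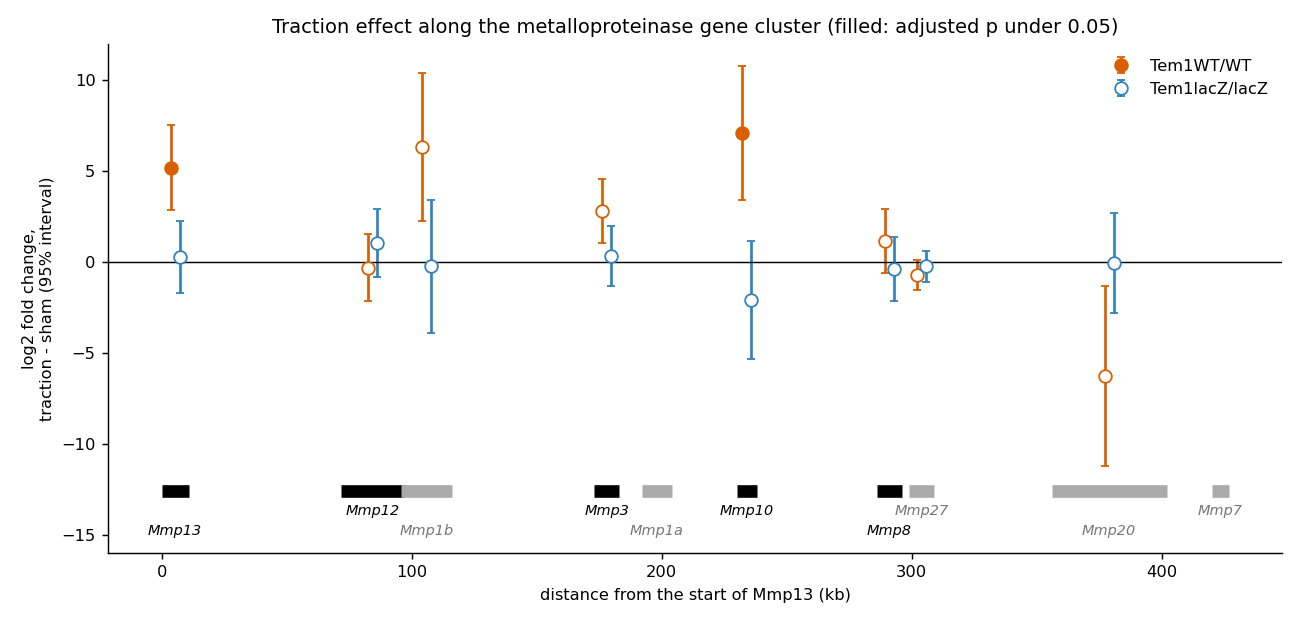
Log2 fold change of traction against sham, with 95% intervals, for the MMP genes of the chromosome 9 cluster that had enough reads to be tested, placed by distance from the start of Mmp13 in kb. Black bars mark the 5 genes described here and grey bars the other MMP genes; filled points, for Mmp13 and Mmp10 in Tem1WT/WT, have an adjusted p below 0.05.

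To compare genes with each other, CPM was divided by the length of all exons of the gene in kb. In WTSH, Mmp2 was highest at 211 ± 22.6 CPM per kb (SD, n = 3), followed by Mmp3 at 139 ± 38.8 and Mmp14 at 78.1 ± 12.7, and the ranges of these 3 did not overlap. The order of Mmp3 and Mmp14 depended on the length used. All exons of Mmp14 cover 5960 bases and its longest transcript 3238, whereas Mmp3 has 1801 by both measures. By the longest transcript, Mmp14 and Mmp3 overlapped in WTSH. Mmp11, Mmp12, Mmp19, Mmp13, Mmp8 and Mmp9 followed at 20.7 down to 5.48 CPM per kb, each overlapping its neighbor. Mmp10 was last at 0.503 ± 0.313, separate from Mmp9. The order began with Mmp2, Mmp3 and Mmp14 and ended with Mmp10 in lacZSH and lacZTR as well. In WTTR it was different: Mmp3 (958 ± 1195), Mmp2 (459 ± 102), Mmp13 (277 ± 385) and Mmp14 (196 ± 43.9) led, each overlapping the next, Mmp9 (98.8 ± 99.7) and Mmp10 (68.4 ± 112) followed, and Mmp12 and Mmp8 were last at 14.4 and 14.3. This order rested on WTTR replicate 1. In replicate 2 the highest were Mmp2 (445), Mmp3 (313), Mmp14 (162) and Mmp13 (57.6), and in replicate 3 they were Mmp2 (568), Mmp14 (245), Mmp3 (225) and Mmp13 (51.7), all in CPM per kb. Mmp10 was the lowest of the 10 genes in replicate 2 and above only Mmp8 in replicate 3.

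Summed over the 10 genes, the length-normalized level was 412 to 571 CPM per kb in WTSH, 343 to 559 in lacZSH and 375 to 700 in lacZTR. In WTTR it was 4142, 1091 and 1234, so that each WTTR library was above all others. The make-up of the sum also differed between WTTR libraries. In replicate 1, Mmp3 gave 56.4% of it, Mmp13 17.4% and Mmp2 8.8%, whereas in replicates 2 and 3 Mmp2 gave 40.8% and 46.0%, close to the mean of 42.3% in WTSH.

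**Figure D5:**
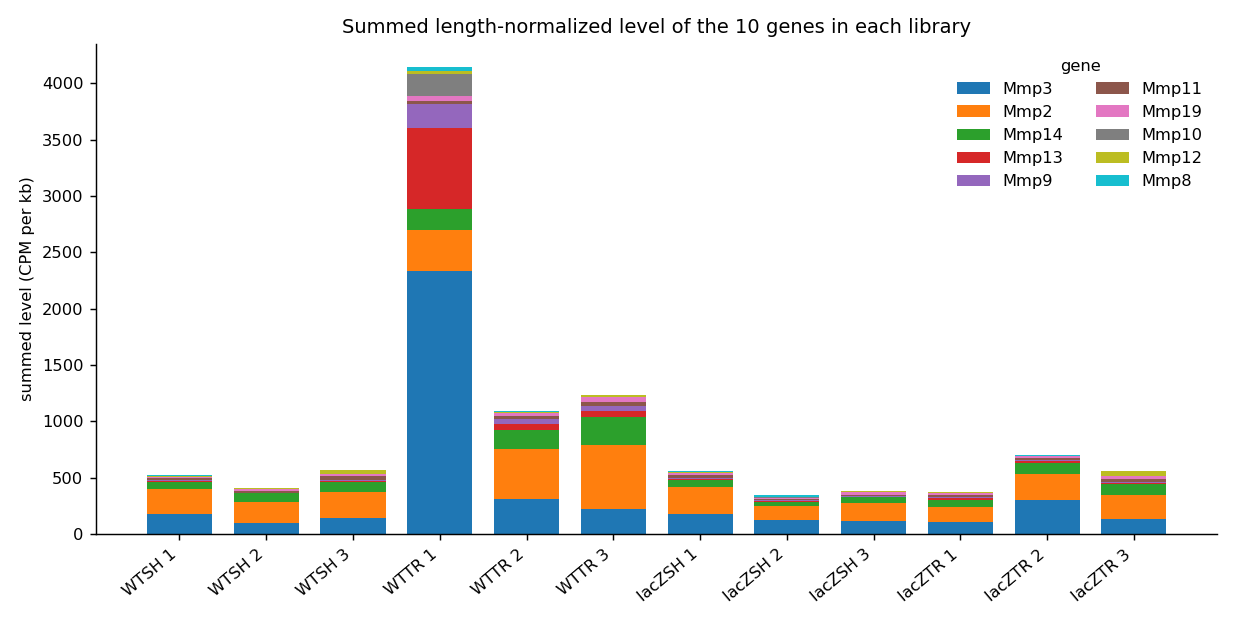
Summed length-normalized level (CPM per kb of exon) of the 10 MMP genes in each library, stacked by gene. WTTR replicate 1 reaches 4142 and consists mostly of Mmp3, while WTTR replicates 2 and 3 reach 1091 and 1234 with Mmp2 as the largest part.

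Likeness between members was described by Pearson's r of their log2 CPM over the 12 libraries. Mmp3, Mmp9, Mmp10 and Mmp13 were alike in every pairing, from r = 0.828 for Mmp9 and Mmp10 to r = 0.953 for Mmp9 and Mmp13, and Mmp2 and Mmp14 were alike at r = 0.919. Mmp8 had r from 0.573 with Mmp9 to 0.717 with Mmp3, with Mmp10 and Mmp13 between. It had r between -0.13 and 0.08 with Mmp19, Mmp12, Mmp11 and Mmp14. These values describe 12 libraries in 4 groups, with WTTR replicate 1 at the extreme for several genes. The genes most alike to Mmp14 were Sh3pxd2b (r = 0.990), an adaptor protein of the invasive membrane protrusions called podosomes, Tbc1d2b (r = 0.989) and Uggt1 (r = 0.987). For Mmp9 they were Nos2 (r = 0.973), the inducible nitric oxide synthase, 1810013L24Rik and Srpr. For Mmp3 they were Arid5a (r = 0.977), Nfkb2 (r = 0.968), a subunit of NF-kappaB, and Junb (r = 0.967), a subunit of AP-1. For Mmp13 they were Tnfrsf9, Socs3 and Bcl10 (r = 0.960 to 0.971), and for Mmp10 Map2k1, H13 and Ier3 (r = 0.959 to 0.971). Mmp12 was most like Matk (r = 0.916), Itgax (r = 0.880), which encodes the integrin CD11c of myeloid cells, and Oasl1 (r = 0.862). Mmp8 was most like Il13ra2, Il1r2 and Zmynd15 (r = 0.883 to 0.891), Mmp2 like Afap1, Fam160b1 and Glb1 (r = 0.967 to 0.968), Mmp19 like Mgat2, Rhoc and Itgb1 (r = 0.946 to 0.958), and Mmp11 like Rnf135, Cdk20 and Gnb4 (r = 0.893 to 0.913).

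The other 13 MMP genes were mostly low. In WTTR against WTSH, none of the 9 that could be tested was called, compared with 9.15% of all genes. Mmp25, a membrane-anchored MMP known from leukocytes, was at 40.5 CPM in WTTR replicate 1 and at 1.19 to 3.86 CPM in the other 11 libraries (adjusted p = 0.0642). Mmp23 was at 22.3, 24.1 and 34.2 CPM in WTSH and at 30.6, 59.1 and 86.4 CPM in WTTR (adjusted p = 0.0588), and without WTTR replicate 1 it was called (log2 fold change 1.42, adjusted p = 0.0441).

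Of 12 MMP inhibitors, 11 could be tested, and 4 rose with traction in Tem1WT/WT while none fell, compared with 5.61% of all genes called higher. This list and the lists below were chosen with earlier results of these data known. They included Timp1 (log2 fold change 3.01 ± 0.75, adjusted p = 0.0384), the general protease inhibitor A2m (4.46 ± 0.78, adjusted p = 0.0252), and Serpine2, an inhibitor of plasminogen activators (1.66 ± 0.27, adjusted p = 0.0242). Timp1 was at 22.8, 20.7 and 57.9 CPM in WTSH and at 547, 121 and 148 CPM in WTTR, and was not called without WTTR replicate 1 (1.97, adjusted p = 0.0844). Without that library 3 inhibitors were called higher, as were 1.44% of the genes then tested. A2m (4.85, adjusted p = 0.0344) and Serpine2 (1.35, adjusted p = 0.0384) were among the 3. Reads of A2m were few, at 4, 24 and 18 in WTSH and 75, 177 and 529 in WTTR. The other TIMPs had estimates of 0.40 (Timp2), -0.48 (Timp3) and -1.51 (Timp4), with adjusted p-values from 0.127 to 0.47. Timp2 and Timp3 were the most abundant TIMPs in WTSH, at 605 ± 85.5 and 450 ± 46.0 CPM (SD, n = 3). In Tem1lacZ/lacZ no inhibitor was called, and between the genotypes with traction Timp1 differed by -1.72 ± 0.71 (adjusted p = 0.161).

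Among 13 testable activators of MMPs, Plaur, the receptor of the plasminogen activator urokinase, and the proprotein convertases Furin and Pcsk5 rose in Tem1WT/WT with traction, and the serine protease Prss8 fell. The shares of all genes called higher and lower were 5.61% and 3.54%. Plaur was at 10.7, 11.97 and 22.8 CPM in WTSH and at 675, 27.3 and 48.6 CPM in WTTR (log2 fold change 4.05 ± 1.06, adjusted p = 0.0423), and without WTTR replicate 1 it was at 1.30 (adjusted p = 0.111). The log2 fold changes were 1.72 for Furin, 3.24 for Pcsk5 and -1.16 for Prss8. Without WTTR replicate 1, Pcsk5 was the one activator called (2.75, adjusted p = 0.0441), and 1.44% of the genes then tested were called higher. Furin was then at 1.08 (adjusted p = 0.0525) and Prss8 at -1.05 (adjusted p = 0.0815). The plasminogen activators Plau and Plat had estimates of 0.60 and 0.70 (adjusted p = 0.138 and 0.193), and Plg, encoding plasminogen itself, was at 0 to 0.319 CPM.

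Of 23 testable cytokines, receptors and transcription factors known to induce MMPs, 13 rose with traction in Tem1WT/WT, compared with 5.61% of all genes. All 23 had a positive estimate, with a median of 1.37, in a list chosen with earlier results of these data known. The 13 included the cytokines Il1b (6.42 ± 1.70, adjusted p = 0.0432), Il6 (3.92 ± 0.86, adjusted p = 0.0329) and Osm (5.998 ± 1.48, adjusted p = 0.0381), Tgfb1 (1.68 ± 0.39, adjusted p = 0.0334), and the AP-1 subunits Fosl1 (2.94 ± 0.53, adjusted p = 0.0252) and Fosl2 (1.37 ± 0.27, adjusted p = 0.0278). Il1b was at 3698 CPM in WTTR replicate 1 and at 86.0 and 84.9 CPM in replicates 2 and 3, beside 5.90 to 32.6 CPM in WTSH. Runx1, Runx2, Ets1, Rela, Il1r1, Tnfrsf1a and Il17ra made up the rest, at 1.02 to 1.71. Without WTTR replicate 1, 4 of the 23 were called, namely Fosl1 (2.30, adjusted p = 0.0441), Fosl2 (0.98, adjusted p = 0.0484), Runx2 and Il17ra. In that fit 1.44% of the genes tested were called higher, and 22 of the 23 had a positive estimate with a median of 0.77. Il1b was then at 2.49 (adjusted p = 0.134), Il6 at 3.30 (adjusted p = 0.0557), Osm at 2.497 (adjusted p = 0.0892) and Tgfb1 at 1.11 (adjusted p = 0.0676). Fosl1 was the one gene of these lists called between the genotypes with traction, where 0.106% of all genes were called. It was at 8.42, 3.14 and 3.29 CPM in WTTR and at 0.468, 0.248 and 0.302 CPM in lacZTR, a log2 difference of -3.87 ± 0.56 (adjusted p = 0.0335), and was at -3.22 without WTTR replicate 1 (adjusted p = 0.051).

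Of 18 matrix proteins that MMPs cut, 8 rose with traction in Tem1WT/WT and none fell, compared with 5.61% of all genes called higher. The 8 included the collagens Col4a1, Col4a2, Col5a1 and Col7a1, and Bgn, Spp1 and Tnc. The largest log2 fold change was that of Tnc, encoding tenascin-C (3.75 ± 0.78, adjusted p = 0.031). Without WTTR replicate 1, 2 of the 18 were called, Col5a1 (2.19, adjusted p = 0.0497) and Bgn (1.51, adjusted p = 0.0384), compared with 1.44% of the genes then tested called higher. Tnc was then at 2.64 (adjusted p = 0.0519). None of the 18 was called in Tem1lacZ/lacZ, where 17 had a positive estimate with a median of 0.70.

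Markers of other cell types moved with the same comparison. In WTTR against WTSH, 7 of 12 testable neutrophil markers, 7 of 10 endothelial, 2 of 12 macrophage and 2 of 12 fibroblast markers (Pdgfra and Pdgfrb) were called higher, and none of the keratinocyte, skeletal muscle or adipocyte markers was called. The share of all genes called higher was 5.61%. All 10 skeletal muscle markers had a negative estimate, with a median of -2.76. Without WTTR replicate 1, 2 of 13 testable neutrophil, 4 of 10 endothelial, 1 of 12 fibroblast and no macrophage markers were called higher, and 2 of 10 skeletal muscle markers were called lower. The shares of the genes then tested were 1.44% called higher and 0.418% called lower. The endothelial markers summed to 384-553 CPM in WTSH and 919-1107 CPM in WTTR. The part of cell composition in the MMP values was not tested.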

How the data were processed

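RNA from a part of each scar was made into stranded poly(A) libraries (TruSeq Stranded mRNA). Per the submitters' processing notes, reads were trimmed with fastp 0.20.0, aligned to GRCm38 with HISAT2 2.1.0 and counted with featureCounts 2.0.0. The deposited files hold whole-number counts per gene, as the authors made them. Which annotation was used, whether strand was counted and what became of multiply aligned reads were not given in the sources used here. The genes and gene lists were chosen with earlier results of these data known.

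Counts were analyzed in R 4.3.3 with edgeR 4.0.16: genes were kept by filterByExpr, libraries scaled by TMM, and a 4-group model was fitted to all 12 libraries with the robust quasi-likelihood method (8 residual degrees of freedom before moderation). P-values were adjusted by Benjamini-Hochberg over 18853 genes and called below 0.05, and 95% intervals used the fitted SE. Fold changes are estimates of the fit and lay close to the ratios of group mean CPM. For Mmp9 the means were 19.4 CPM in WTSH and 349 CPM in WTTR, and the fitted fold was 18.0. A single high library therefore weighs on a fold change as it does on a mean. Alternatives used limma 3.58.1 and DESeq2 1.42.0, other scalings and filters, a replicate block and leaving out each library. The fit was tested on simulated data. All 10 genes were named in each comparison, TIMPs and plasminogen activators in any case, and other listed genes mainly where they were called. Genes alike were ranked by Pearson's r of log2 CPM (prior count 2) over 12 libraries, leaving out genes whose mean log2 CPM was under 1. Exon lengths came from GENCODE on GRCm38, which may differ from the authors' annotation. Replicates were separate mice. No library pair of a group agreed within sampling noise. Totals of 41536788 to 64644293 reads left counting error small except for Mmp10, which had 16 to 108 reads outside WTTR and 86 in WTTR replicate 2. Some listed genes are not reported here by name.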

Additional observations from a re-analysis of the deposited data

Results flagged for a closer look

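For Mmp10, a stromelysin, the libraries separated in opposite directions with traction in the genotypes. Every WTTR library (1.90 to 341 CPM) was above every WTSH library (0.261 to 1.29 CPM), and every lacZTR library (0.302 to 0.863 CPM) was below every lacZSH library (1.55 to 2.57 CPM). The difference in Tem1lacZ/lacZ, -2.10 ± 1.47 on the log2 scale, did not pass edgeR's test (adjusted p = 0.698), and 12.9% of all genes did not overlap in that comparison. The interaction of genotype and traction was -9.20 on the log2 scale (edgeR, adjusted p = 0.548; DESeq2, adjusted p = 0.00227), and -4.88 without WTTR replicate 1 (adjusted p = 0.558). Outside WTTR the gene had 16 to 108 reads per library. WTTR replicate 2 had 86 reads, beside 79 in WTSH replicate 3. Of all genes, 17.7% separated upward between WTSH and WTTR.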

How the results depend on the processing

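The number of the 10 genes called for traction in Tem1WT/WT (5) was 4 to 6 under DESeq2's size factors, upper quartile scaling, other count filters, DESeq2 (6 of the 9 genes given a p), limma-voom and a fit without robust estimation, and 0 when only the 6 libraries compared were fitted, where no gene at all was called. Leaving out each library gave 0 to 6 for that comparison and 0 to 5 for the genotypes with traction, where 5 were called only without WTTR replicate 2, a fit that called 1421 genes in all. DESeq2 called 5 of the 10 for the genotypes with traction and 2 for the interaction, and limma-voom called 1 (Mmp14) for traction in Tem1lacZ/lacZ, among 377 genes. No alternative called a member in sham. Over all genes, the calls for traction in Tem1WT/WT were 1725 in the main analysis, 4047 by DESeq2, 735 by limma-voom, 1011 without a count filter and 0 to 2861 leaving out each library; for the genotypes with traction they were 20, by DESeq2 2334, and 3 to 1421 leaving out each library. The correlation of deviations between same-numbered libraries ran from -0.32 to 0.25, was mostly positive and was over 0.1 in 8 of 18 pairs. Between libraries of different numbers it ran from -0.40 to 0.37, and few pairs were over 0.1. Whether same-numbered libraries shared a batch cannot be told from these values. With the replicate block in edgeR, 4 of the 10 were called for traction in Tem1WT/WT and 1467 genes in all. The 4 were Mmp9, Mmp13, Mmp14 and Mmp19 (adjusted p = 0.0321), while Mmp2 (adjusted p = 0.0574) and Mmp10 (adjusted p = 0.0559) missed the threshold. Ordering WTTR by the longest transcript in place of all exons left 6 of the 10 genes in place, with Mmp13 and Mmp14, and Mmp19 and Mmp11, trading places.

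Only estimates that did not pass the test changed sign. For traction in Tem1lacZ/lacZ, Mmp8 was at 0.068 in limma-voom. For the genotypes in sham, Mmp3 was at -0.0059 without a count filter and at -0.0055 with the replicate block, and the interaction of Mmp11 was 0.28 in limma-voom. Leaving out each library, traction in Tem1WT/WT gave -0.043 to 2.09 for Mmp8 and -1.14 to 0.49 for Mmp12. Traction in Tem1lacZ/lacZ gave -0.012 to 0.53 for Mmp2, -0.25 to 0.66 for Mmp3, -0.73 to 0.29 for Mmp8, -0.43 to 1.52 for Mmp12, -0.034 to 0.58 for Mmp13 and -0.31 to 0.30 for Mmp19. The genotypes with traction gave -1.15 to 1.16 for Mmp12. The genotypes in sham gave -0.20 to 0.22 for Mmp3, -0.64 to 0.98 for Mmp8, -0.59 to 0.089 for Mmp9, -0.72 to 0.11 for Mmp11 and -0.17 to 0.59 for Mmp19. The interaction gave -0.51 to 0.35 for Mmp11 and -0.13 to 2.21 for Mmp12. The cause of these shifts was not tested.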
